A study of Mus musculus with 30 samples.

Results

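Mammary epithelial cells make and export milk fat, and 48 genes of fatty acid, triglyceride and cholesterol synthesis and of lipid droplet secretion were followed here in sorted luminal and basal cells of the mouse mammary gland. Members were taken from a fixed list wherever they were rows of the normalized count table, and 47 of the 48 were among its 11137 genes. Of 28 fat genes 27 were in the table (Fabp3 was not), as were all 16 sterol genes and all 4 genes of the sterol regulatory element binding protein (SREBP) control circuit, and fat and sterol genes are described apart. Each of 30 libraries came from one mouse and one sorted lineage, by 3′ mRNA sequencing with molecular identifiers. The 15 luminal libraries were from CD49f low, CD24 high cells that were GFP+, that is recombined, per the study's sorting scheme. The 15 basal libraries were from CD49f high, CD24 low cells, and CD45+ and CD31+ cells were gated out.

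All mice carried K8rtTA, TetO-Cre and the mTmG reporter, and all received doxycycline at 1 mg/ml in the drinking water from week 3 to week 8 of age per the labels (the study's methods give a later start). The controls, called K8imTmG, carried nothing further, whereas the K8iΔRank mice also carried Rank fl/fl, so that Cre driven from the keratin 8 promoter deleted Rank, the receptor for Rankl, in luminal cells. Basal cells of K8iΔRank mice therefore kept Rank and were sequenced beside Rank-deleted luminal cells. Virgin glands were compared with age-matched parous glands, taken after pregnancy and involution. Control dams nursed their pups for part of lactation but K8iΔRank dams lost their litters at its start, so that nursing and genotype cannot be told apart in parous glands. The groups held 3 virgin and 5 parous luminal K8imTmG libraries, 3 virgin and 4 parous luminal K8iΔRank libraries, 3 virgin and 4 parous basal K8imTmG libraries, and 4 virgin and 4 parous basal K8iΔRank libraries, from 17 mice, of which 13 gave both lineages. Each library was a replicate, and p-values measure the spread between mice.

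Cytosolic fatty acids are built from acetyl-CoA: Acly releases it from citrate, Acaca turns it into malonyl-CoA, Fasn joins the units into palmitate, and Me1 supplies reducing power. The chains are then desaturated and lengthened, esterified to glycerol, and stored in droplets coated by perilipins, and in milk-secreting cells xanthine oxidoreductase (Xdh) takes part in enveloping the droplet at the apical membrane. Sterols start from the same acetyl-CoA through the mevalonate pathway, squalene and lanosterol. The transcription factors Srebf1 and Srebf2, escorted by Scap and held back by Insig1, switch on both routes, and the liver and the lactating mammary gland are among the tissues that use them most.

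SREBP binds the sterol regulatory element next to CCAAT boxes bound by NF-Y, and both sets of letters were looked for in RefSeq promoter windows (GRCm38.p6, from 250 bases before to 50 bases after each annotated start, both strands). A window was at hand for 37 of the 48 members. The element TCACNCCAC was present in 1 of 12 sterol genes and 0 of 4 control genes, beside 1.44% of all genes with a window. CCAAT was present in all 12 sterol genes with a window, 13 of 21 fat genes and 3 of 4 control genes, beside 41.1% of all genes. A match is a description of letters and not a site. The sterol element of Hmgcs1 is printed first and CCAAT windows of 6 sterol genes described below follow, on the strand of the gene, 5′ to 3′, with the motif or its reverse complement in capitals.
Hmgcs1, sterol element, chr13:119690204-119690232: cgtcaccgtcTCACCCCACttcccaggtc
Mvd, CCAAT, chr8:122443435-122443459: ggccagcgggCCAATcatatggcag
Idi1, CCAAT, chr13:8885551-8885575: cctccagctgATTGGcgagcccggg
Cyp51, CCAAT, chr5:4104712-4104736: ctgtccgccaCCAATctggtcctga
Msmo1, CCAAT, chr8:64733619-64733643: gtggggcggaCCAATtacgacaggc
Sc5d, CCAAT, chr9:42264310-42264334: ccggctgctgATTGGccggctgcct
Hmgcs1, CCAAT, chr13:119690296-119690320: cccgcctctcATTGGctgaaagcgg

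Values are normalized read counts, that is reads divided by a size factor of the library. Reads per library ranged from 340445 to 3130419 (median 1853588), so that 1 read was worth 0.381 to 5.43 normalized counts. Levels are compared between libraries and never between genes, and a lower share of expressing cells and less RNA per cell cannot be told apart in sorted bulk cells. The sorts carried their defining markers: 9 basal markers summed to 8688 to 13970 in basal and 46.2 to 254 in luminal libraries, and 6 luminal markers to 3589 to 10260 in luminal and 526 to 1461 in basal libraries. Of 10 adipocyte markers only Fabp4 and Lipe were in the table, and Adipoq, Plin1, Plin4, Cidec, Cidea, Lep, Retn and Cfd were not. Reads of Rank itself, which ranged from 9.57 to 18.6 normalized counts in virgin luminal K8imTmG, 11.5 to 23.8 in virgin luminal K8iΔRank, 12.8 to 64.9 in parous luminal K8imTmG and 27.0 to 41.1 in parous luminal K8iΔRank libraries, fall at the 3′ end and do not check the deletion. A split of the libraries touched many results: Clec2d stood at 65.6 to 199 normalized counts in 14 libraries and at 0.641 to 8.68 in the other 16, with the 2 lineages of 10 of 13 mice on opposite sides. In virgin cells of either lineage, and between stages of luminal K8iΔRank, the Clec2d side and the group were the same split and cannot be told apart, and the high libraries were also shallower (median 878946.5 against 2478110 reads).

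Genes were called at an adjusted p under 0.05 by limma on log2(normalized count + 1), so that differences of low genes are understated, with Benjamini-Hochberg adjustment over all genes tested. The clearest pattern lay between the lineages. Over all groups, 29 of the 47 genes were called between luminal and basal cells, beside 55.7% of all genes; 23 were higher in luminal cells, beside 28.7% of all genes, and 6 were lower, beside 27.0%. Of 27 fat genes 16 were higher and 4 lower in luminal cells, with a median log2 difference of 0.67, while of 16 sterol genes 6 were higher and 1 lower, with a median of 0.44, and the median of all genes was 0.04. With the mouse as a block 30 were called, beside 55.7% of all genes, and with the Clec2d side as a term 31, beside 51.8%.

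**Figure D1:**
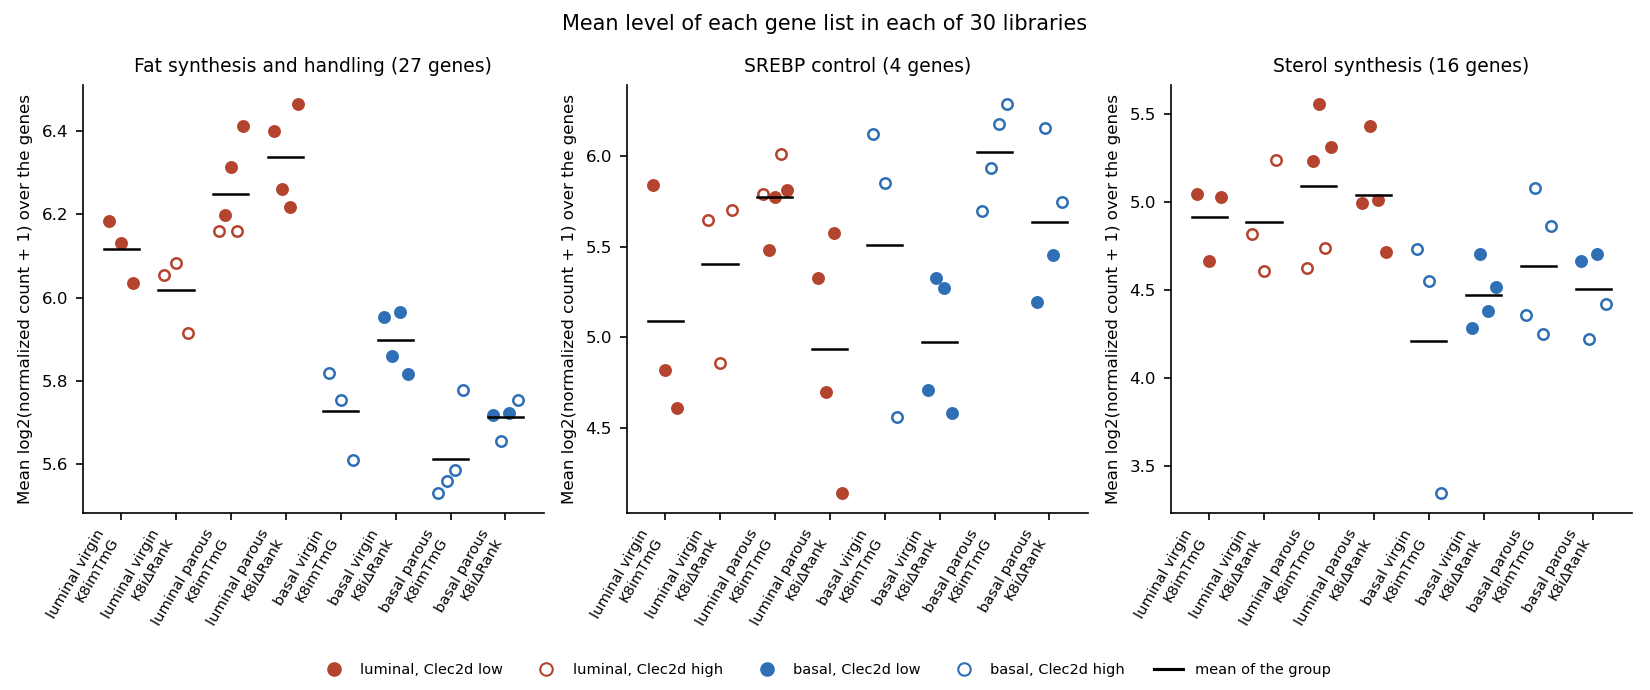
Mean log2(normalized count + 1) of the 27 fat genes, the 16 sterol genes and the 4 SREBP control genes in each of 30 libraries (red luminal, blue basal, open points on the high Clec2d side, bars for group means). The group mean of the fat genes was highest in the 4 parous luminal K8iΔRank libraries (6.22 to 6.47) and lowest in the 4 parous basal K8imTmG libraries (5.53 to 5.78).

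At the start of the fat pathway Me1 and Acly were higher in luminal cells. Me1 stood at 61.9, 84.3 and 124 normalized counts (lowest, median and highest of 15) in luminal and 21.4, 33.5 and 57.9 in basal libraries, a log2 difference of 1.30 (SE 0.12, adjusted p = 3.77e-10). The ranges did not overlap, and Me1 was the only gene of either list whose lowest luminal library lay above the highest basal library; over all genes 9.57% did not overlap in either direction. Acly (0.75) was higher in the luminal library of 13 of 13 mice. Fasn ranged from 43.7 to 301 with a median of 129 in luminal and from 37.2 to 151 with a median of 80.5 in basal libraries, and its log2 difference of 0.46 (SE 0.21) missed the threshold (adjusted p = 0.0561), as did Acaca and Acss2. With the Clec2d side as a term in limma Fasn came to 0.05 (adjusted p = 0.795). In that fit Acaca was called lower in luminal cells (-0.86, adjusted p = 0.000203).

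Among desaturases and elongases, 4 of 7 were higher and 2 lower in luminal cells. Scd1, which places the double bond that makes oleate from stearate, stood at 110, 219 and 509 normalized counts in luminal and 32.7, 62.3 and 130 in basal libraries, a log2 difference of 1.85 (SE 0.17, adjusted p = 1.45e-10). Its luminal value was the larger in 13 of 13 mice. Scd2, its paralog, went the other way (log2 difference -0.53, adjusted p = 0.0224), and so did Elovl5, an elongase of polyunsaturated chains (-0.88, adjusted p = 4.73e-07). With the Clec2d side as a term in limma Elovl5 kept its call (-0.76, adjusted p = 9.8e-06) and Scd2 lost it. Elovl1 (0.64), Elovl6 (0.67) and Fads2 (0.71) were higher in luminal cells, and Fads1 gave 0.00 (SE 0.15).

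Of the 4 uptake and activation genes 2 were lower and 1 higher in luminal cells. Cd36, a fatty acid translocase of the plasma membrane, stood at 0, 9.25 and 18.4 normalized counts in luminal and 19.9, 76.1 and 487 in basal libraries, a log2 difference of -3.38 (SE 0.29, adjusted p = 2.98e-11). The basal value was the larger in 13 of 13 mice and the ranges did not overlap. Lpl, the lipase that frees fatty acids from circulating triglyceride, was lower in luminal cells overall (-0.95, adjusted p = 0.00225), whereas Acsl1, which activates fatty acids with coenzyme A, was higher (1.26, adjusted p = 4.85e-07). Cd36 is also a gene of capillary endothelium, which the CD31 gate was set to remove, and of adipocytes, and 7 endothelial markers in the table (Tek was not) summed to 104 to 1357 normalized counts in basal and 8.82 to 158 in luminal libraries. The highest basal values of both were in virgin libraries: Cd36 stood at 349, 62.0 and 76.1 in K8imTmG and 487, 201, 386 and 137 in K8iΔRank virgin libraries, where the endothelial sum was 598, 393 and 239 and then 1357, 488, 941 and 328 in the same order. In parous basal libraries Cd36 was 19.9 to 107 and the endothelial sum 104 to 215. Over both genotypes Cd36 thus overlapped between stages, whereas the endothelial sum did not. Fabp4, the more abundant of the 2 adipocyte markers in the table, stood in virgin basal libraries at 2587, 442 and 440 and then 496, 589, 955 and 142, in the order above. It ranged from 111 to 797 in parous basal libraries, where its highest value (797) went with a Cd36 of 97.2. The part of other cell types in the Cd36 difference was not tested.

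Glycerolipid assembly leaned to luminal cells, with 6 of 8 genes higher and 0 lower. Dgat2, the last acylation step of triglyceride synthesis, stood at 6.18, 167 and 552 normalized counts in luminal and 3.39, 11.2 and 38.8 in basal libraries (log2 difference 3.44, SE 0.38, adjusted p = 5.83e-09). Luminal Dgat2 spread widely, yet it was the larger value in 13 of 13 mice. Gpam, the initial glycerol 3-phosphate acylation, gave 1.25, and Lpcat3, which loads phospholipids with polyunsaturated chains, gave 0.96 (SE 0.11, adjusted p = 1.1e-08), both higher in the luminal library of 13 of 13 mice. Agpat1 (1.11), Agpat2 (0.75) and Agpat3 (0.43), which acylate lysophosphatidic acid, were also higher. Dgat1, the other diacylglycerol acyltransferase, gave -0.37 (adjusted p = 0.0989), and Lpin1 was not called. With the Clec2d side as a term in limma Dgat1 was called lower in luminal cells (-0.51, adjusted p = 0.0368). All 3 droplet genes were higher in luminal cells: Plin2 stood at 194, 601 and 1021 against 83.7, 148 and 448 normalized counts (log2 difference 1.55, SE 0.17, adjusted p = 3.6e-09), Plin3 gave 0.73, and Xdh 0.74 (adjusted p = 0.0426). Xdh lost its call on leaving out 18 of the 30 libraries, one at a time, and by edgeR (0.61, adjusted p = 0.0719).

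In the sterol pathway 7 of 16 genes were called, beside 55.7% of all genes, and 6 of them were higher in luminal cells, beside 28.7%. These were 2 genes in each stretch, from mevalonate to farnesyl, from squalene to lanosterol and from lanosterol to cholesterol. Sc5d, a late desaturase of the sterol ring, stood at 89.5, 148 and 288 normalized counts in luminal and 16.3, 63.2 and 93.8 in basal libraries (log2 difference 1.35, SE 0.17, adjusted p = 5.87e-08), and was the larger in luminal cells of 13 of 13 mice. Fdft1, which makes squalene, stood at 31.2, 67.1 and 111 against 14.7, 24.8 and 45.5 (1.32, SE 0.19, adjusted p = 5.97e-07), and Sqle, the squalene epoxidase, gave 0.81 (adjusted p = 3.37e-05). Mvd (1.82, SE 0.34) and Pmvk (0.73), steps of the mevalonate branch, and Dhcr7 (1.42, SE 0.31), the last step to cholesterol, were also higher; basal Dhcr7 ranged only from 0 to 11.8, so that single reads weigh on it. Hmgcs1, the enzyme at the entry of the branch, was lower in luminal cells (-0.39, adjusted p = 0.0381), a call lost on leaving out 12 of the 30 libraries, one at a time, and with the Clec2d side term (-0.41, adjusted p = 0.0563). The 9 other sterol genes (Mvk, Idi1, Fdps, Lss, Cyp51, Msmo1, Nsdhl, Hsd17b7 and Stard4) were not called, with log2 differences from -0.38 (Cyp51) to 0.59 (Nsdhl). With the side term Cyp51 (-0.60, adjusted p = 0.0134) and Stard4 (-0.69, adjusted p = 0.0438) were called lower in luminal cells by limma. Of the control genes Srebf2, the factor tied to sterol genes, stood at 73.0, 158 and 240 in luminal and 143, 242 and 460 in basal libraries (-0.69, SE 0.12, adjusted p = 8.37e-06) and Scap was higher in luminal cells (0.38, adjusted p = 0.0139); Srebf1 gave -0.37 (adjusted p = 0.381).

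**Figure D2:**
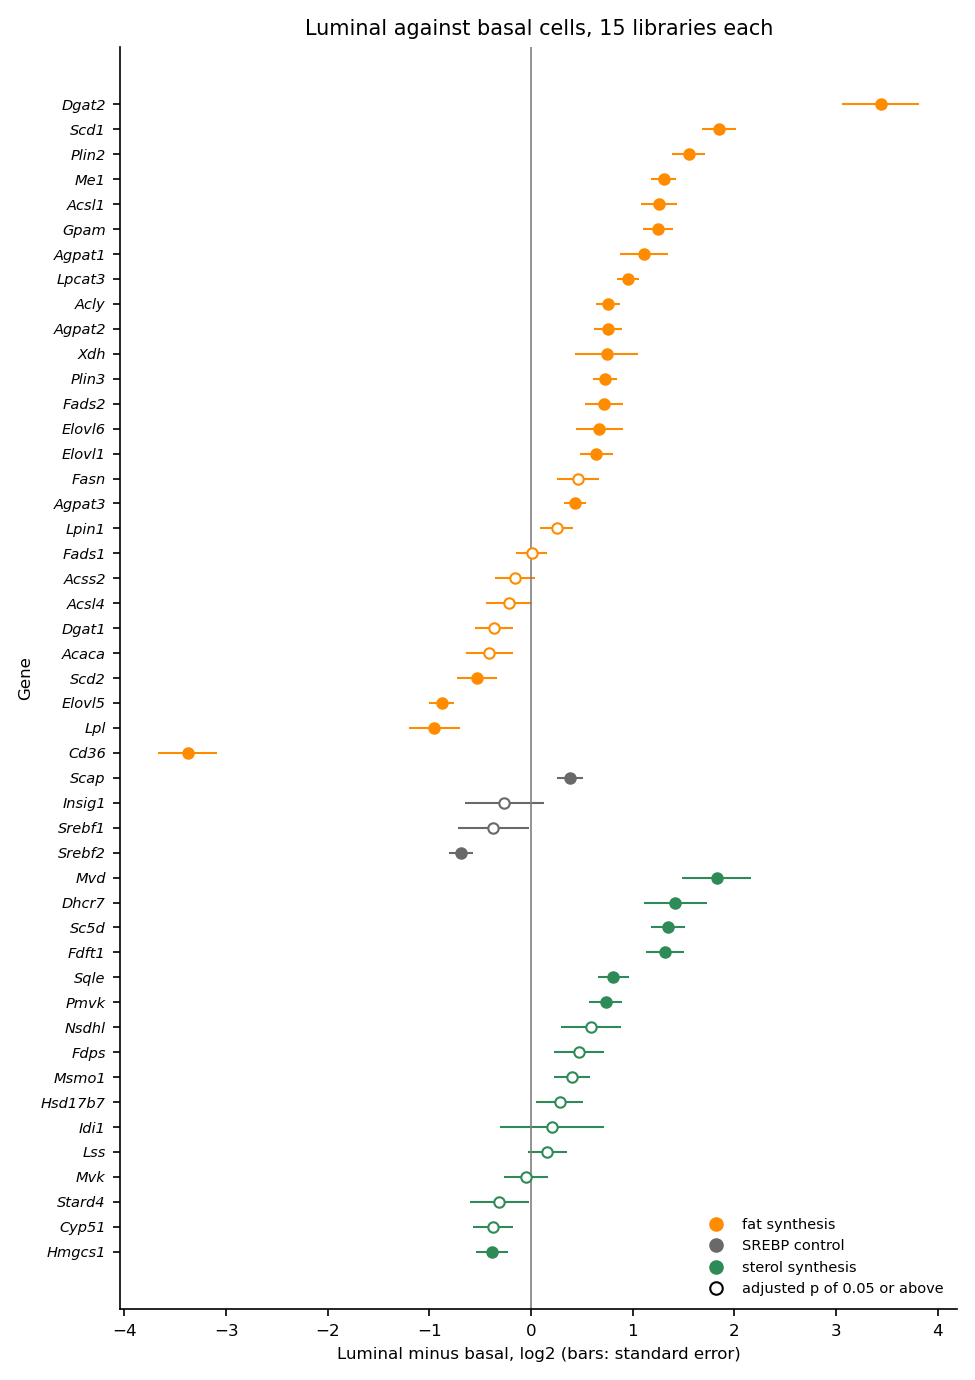
Log2 difference (luminal minus basal, with standard error) of each of 47 genes, coloured and grouped by list and ordered by size; filled points had an adjusted p under 0.05. Cd36 lay lowest at -3.38 and Dgat2 highest at 3.44, with 23 genes called higher and 6 lower in luminal cells.

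Other genes of the same pathways were called between lineages at shares of 23 of 30 fat and 11 of 20 sterol genes, the latter close to the 55.7% of all genes. Of the 30 other fat genes 15 were higher and 8 lower in luminal cells, led by Elovl4 (-4.88), Btn1a1, the butyrophilin of the milk fat globule (4.48), and Elovl7 (3.22), and of the 20 other sterol genes 8 were higher and 3 lower, among them Abcg1 (2.74) and Ebp (1.25). As a description, the deviations of sterol genes from their group means went together more than those of fat genes: the median pairwise correlation over 15 libraries was 0.25 in luminal and 0.29 in basal cells for 16 sterol genes and -0.02 in each for 27 fat genes, beside 0.00 for all genes, all of them sharing library depth. The Clec2d side was not taken out of these deviations. In parous luminal K8imTmG libraries the mean sterol level was 4.63 and 4.74 on the high side and 5.23, 5.56 and 5.31 on the low side. In virgin basal K8imTmG libraries it was 3.35 in replicate 568 beside 4.73 and 4.55. The part of the side, or of single libraries, in these correlations was not tested.

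The size of some lineage differences depended on the group. Lpl was lower in luminal cells of virgin K8imTmG mice (log2 difference of group means -3.20) and higher in those of parous K8imTmG mice (1.00). Plin2 differed by 1.27 in virgin and 2.57 in parous K8imTmG mice and by 0.08 and 2.27 in K8iΔRank mice, and Mvd by 3.67 in virgin K8imTmG but -0.03 in virgin K8iΔRank cells. These per-group values were not tested against each other, and in virgin cells the luminal and basal libraries lay on opposite Clec2d sides.

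In control luminal cells single steps of fat handling were higher after pregnancy and others lower. Parous K8imTmG against virgin K8imTmG luminal cells gave 4 called genes of 47, beside 2.2% of all genes: Lpl and Fads2 were higher and Lpcat3 and Gpam lower, all fat genes. For 10 fat genes (6 higher, 4 lower) and 1 sterol gene, Sc5d, the groups did not overlap, beside 16.9% of all genes. The 27 fat genes had a median log2 difference of 0.10 and the 16 sterol genes of 0.19, beside -0.01 for all genes.

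Lpl stood at 13.5, 5.24 and 5.89 normalized counts in the 3 virgin and at 26.9, 79.6, 173, 76.7 and 88.7 in the 5 parous libraries (log2 difference 3.18, SE 0.53, adjusted p = 0.0278). Every parous library lay above every virgin one, with the lowest parous value in a library on the high Clec2d side. Fads2, the desaturase that opens the route to long polyunsaturated fatty acids, went from 128, 132 and 43.4 to 334, 410, 435, 738 and 381 (2.28, SE 0.39, adjusted p = 0.0285), again without overlap.

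Lpcat3 fell from 197, 218 and 240 to 79.0, 76.0, 68.8, 70.3 and 83.5 normalized counts (log2 difference -1.52, SE 0.18, adjusted p = 0.0202). The 5 parous values lay within a narrow band on both Clec2d sides. Lpcat3 lies on the plus strand at chr6:124639765-124684440 and Lpl at chr8:69284603-69360100, with Fads2 (chr19:10038130-10079203) and Gpam (chr19:55055700-55115784) on the minus strand of another chromosome (GRCm39). Gpam fell from 111, 112 and 164 to 55.4, 49.6, 46.8, 25.6 and 57.5 (-1.46, SE 0.30, adjusted p = 0.0403). These 4 genes kept an adjusted p under 0.05 in all 11 alternatives that did not leave out a single library. Leaving out a library kept each direction, but Lpcat3 lost the call without 3 of the 8 libraries, Lpl and Fads2 without 6 and Gpam without 7, and the count of called genes ran from 0 (without parous 532, or virgin 533 or 538) to 8 (without parous 494), with 1 without parous 557 or 558 or virgin 531.

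Among the other genes followed in all luminal comparisons, Scd1 stood at 110, 172 and 298 in virgin and 323, 362, 425, 205 and 317 in parous libraries (log2 difference 0.83, adjusted p = 0.193), and Plin2 at 219, 299 and 601 and then 507, 786, 826, 805 and 651 (1.05, adjusted p = 0.114). Both overlapped between stages. Fasn stood at 122, 137 and 129 and then 43.7, 242, 301, 70.3 and 154 (-0.01, SE 0.56), the 2 low parous values being the libraries on the high Clec2d side. Xdh (1.26, adjusted p = 0.212), Srebf1 (1.43, adjusted p = 0.143), Hmgcs1 (0.62, adjusted p = 0.243), Insig1 (1.05, adjusted p = 0.3), Cyp51 (0.44) and Sqle (0.14) did not pass either.

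The split by Clec2d could be taken out here, because the 3 low parous and 3 virgin libraries were all on the low side. Those 6 libraries alone gave 11 called members of 46, beside 12.8% of all genes: Lpl (3.66), Fads1 (1.85), Acsl1 (1.84), Fads2 (2.17), Acaca (1.15), Elovl6 (1.17), Idi1 (2.09) and Stard4 (2.36) were higher, and Lpcat3 (-1.51), Gpam (-1.29) and Dgat2 (-3.57) lower in parous cells. With all 30 libraries and the side as a term 9 members of 47 were called, beside 9.4% of all genes, including Plin2 (1.18) and not Acaca, Elovl6 or Idi1. Idi1, which isomerizes isopentenyl diphosphate, stood at 5.13, 5.77 and 3.68 normalized counts in virgin and 27.2, 29.6 and 16.4 in low-side parous libraries, and at 0 and 32.0 in the high-side ones. Stard4, a cytosolic sterol carrier, stood at 5.77, 5.77 and 9.57 and then 36.0, 65.7 and 25.5, with 8.40 and 6.39 on the high side. Sterol genes gave 0 calls of 16 in the 8-library limma fit, with 1 at an unadjusted p under 0.05 (21.7% of all genes), 2 by DESeq2 (10.3%) and 0 by edgeR (2.69%).

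**Figure D3:**
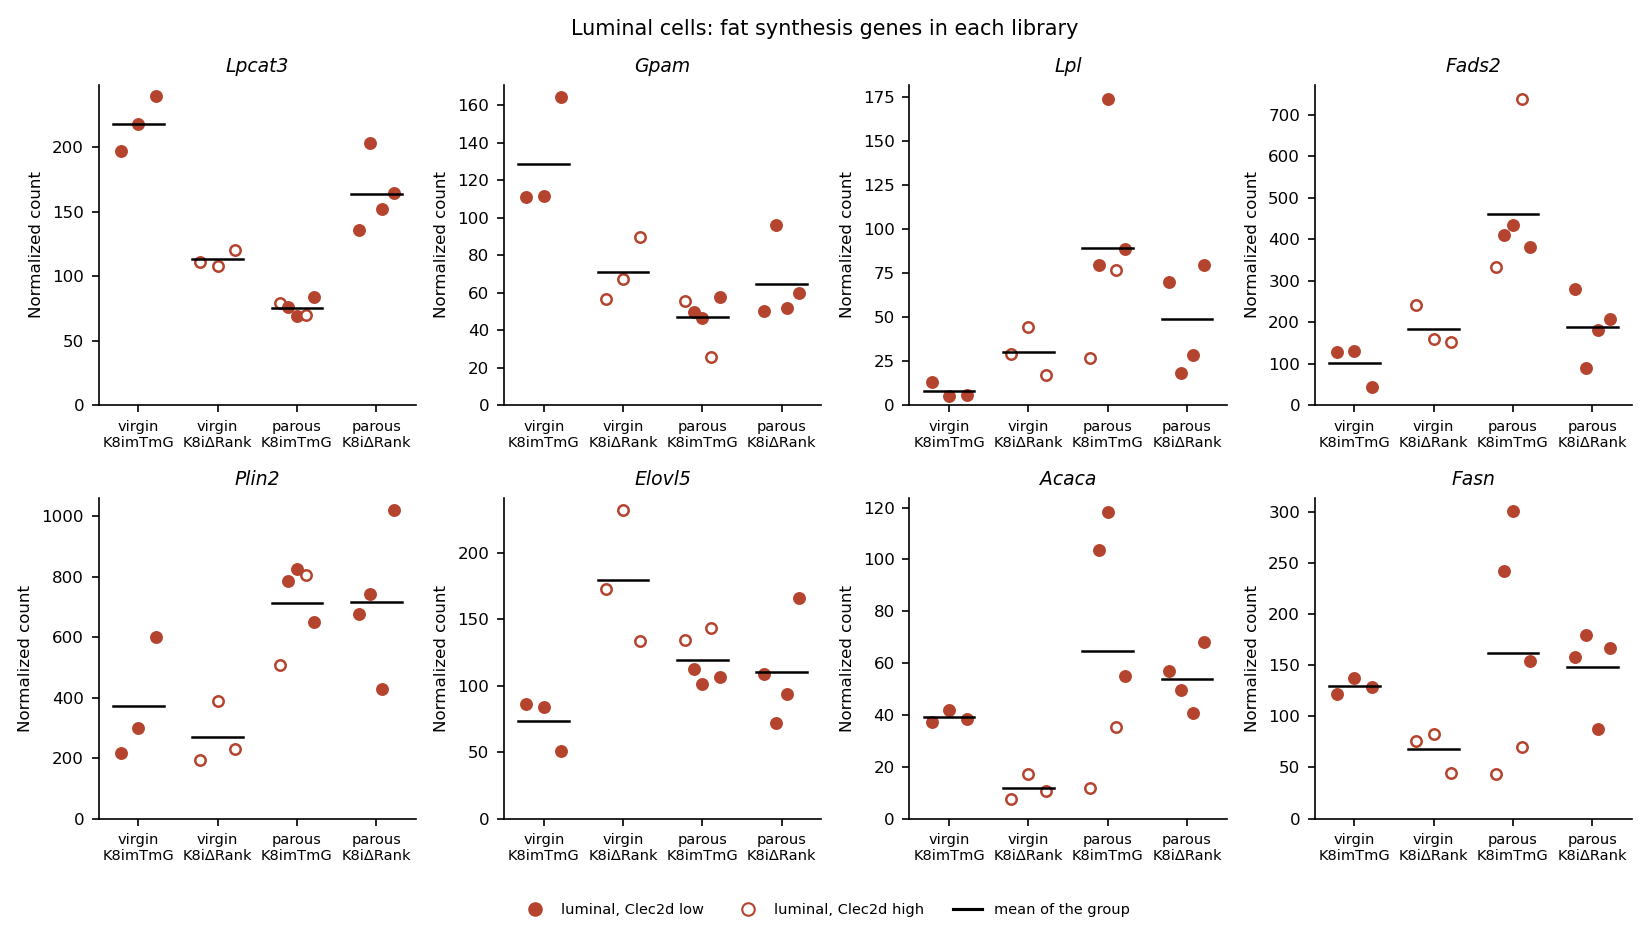
Normalized counts (linear axes from 0) of 8 fat genes in the 15 luminal libraries by stage and genotype, with open points for the high Clec2d side and bars for group means. Lpcat3 lay at 68.8 to 83.5 in parous K8imTmG cells, below the other 3 luminal groups (108 to 240).

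Sums of cell type markers in the luminal groups are set beside these genes. They were not tested between groups, and several of their ranges overlapped. The 8 hormone-sensing markers summed to 9343 to 11207 normalized counts in virgin K8imTmG, 689 to 8004 in parous K8imTmG, 6201 to 10787 in virgin K8iΔRank and 3128 to 7146 in parous K8iΔRank luminal libraries. The 7 progenitor and alveolar markers in the table (Wap was not) summed to 770 to 1327, 3446 to 4941, 2032 to 3367 and 1898 to 3383 in the same order. The 8 fibroblast markers summed to 247 to 960, 105 to 323, 731 to 856 and 176 to 426, again in that order, and 4 leukocyte markers of 10 that were in the table to 9.59 to 42.3 over all luminal libraries. Their part in the fat gene differences was not tested. Of the other pathway genes Elovl7 (-1.08) and Lpin2 (-2.10) were lower in parous control cells, 2 of 28 fat genes tested, and 0 of 19 sterol genes were called.

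In parous luminal cells the K8iΔRank genotype went with one called gene of the lists. Lpcat3 stood at 135, 203, 152 and 164 normalized counts in K8iΔRank and at 79.0, 76.0, 68.8, 70.3 and 83.5 in K8imTmG libraries (log2 difference 1.10, SE 0.16, adjusted p = 0.0372), and the groups did not overlap. It was 1 of 47 members, beside 0.0991% of all genes, that is 10 genes in all. Lpcat3 passed in all 11 other settings that kept every library of the groups or one Clec2d side, including the low-side libraries alone (1.08, 1 member called beside 0.416% of all genes) and the side term (0.99, 1 member beside 0.634%). Leaving out any library but parous K8imTmG 494 lost the call, with differences from 0.99 to 1.18.

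Next by p came Fads2, at 280, 88.9, 182 and 208 in K8iΔRank against 334, 410, 435, 738 and 381 in K8imTmG libraries (-1.33, SE 0.33, adjusted p = 0.106), and Srebf1, the factor tied to fatty acid genes, at 12.9, 4.91, 17.3 and 2.98 against 45.4, 29.6, 18.5, 41.5 and 22.9 (-1.81, SE 0.47, adjusted p = 0.106). Neither passed, although neither overlapped. In all, 6 fat genes, 1 control gene and 0 sterol genes did not overlap, beside 9.73% of all genes. Scd1 (-0.25), Fasn (0.15), Plin2 (-0.04), Xdh (-0.01), Hmgcs1 (-0.14), Sqle (-0.10), Cyp51 (0.12) and Insig1 (-0.90) all had adjusted p of 0.405 or more. The median log2 difference was -0.03 for fat and -0.06 for sterol genes, beside 0.04 for all genes. No sterol gene was called among 16 by limma, DESeq2 (6.06% of all genes) or edgeR (0.198%), and limma gave 0 at an unadjusted p under 0.05 (19.9%).

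Virgin luminal cells gave no called member between genotypes. By limma 0 of 44 genes tested passed, beside 0.984% of all genes, while 13 had an unadjusted p under 0.05, beside 22.1% of all genes. DESeq2 called 5, beside 6.44%, and edgeR 0, beside 1.37%. Acaca had the lowest p, at 7.57, 17.3 and 10.6 normalized counts in K8iΔRank and 37.2, 41.9 and 38.3 in K8imTmG libraries (log2 difference -1.72, SE 0.37, adjusted p = 0.0585). Elovl5 stood at 173, 233 and 133 against 86.5, 83.9 and 50.8 (1.28, SE 0.31, adjusted p = 0.0679). Groups did not overlap for 13 fat genes (5 higher, 8 lower in K8iΔRank), 1 sterol gene (Mvd) and 1 control gene (Srebf2), beside 28.3% of all genes, and all 3 K8iΔRank libraries were on the high and all 3 K8imTmG libraries on the low Clec2d side.

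Of the genes followed throughout, Fasn was 75.7, 82.7 and 44.9 in virgin K8iΔRank against 122, 137 and 129 in virgin K8imTmG cells (-0.97, adjusted p = 0.0972), and Xdh was 160, 465 and 321 against 148, 89.1 and 115 (1.32, adjusted p = 0.0917). Neither overlapped. With the side term Acaca came to -0.09 and Xdh to 0.08, and Fasn turned to 0.53. Scd1 (0.15), Plin2 (-0.39), Srebf1 (0.65), Hmgcs1 (0.38), Sqle (-0.26), Cyp51 (0.23) and Insig1 (-0.04) had adjusted p from 0.533 to 0.974. The median log2 difference was -0.11 for 27 fat and -0.21 for 13 sterol genes, beside -0.03 for all genes. The 3 untested sterol genes were too low in these 6 libraries.

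Between parous and virgin K8iΔRank luminal cells 7 of 47 members were called, beside 16.0% of all genes. Acaca (2.14, SE 0.31, adjusted p = 0.00311), Fads1 (1.33, adjusted p = 0.0124), Plin2 (1.40, adjusted p = 0.0147), Agpat1 (0.93, adjusted p = 0.0166), Fasn (1.11, adjusted p = 0.0285) and the sterol gene Mvd (1.33, adjusted p = 0.0206) were higher, and Scd2 (-1.16, adjusted p = 0.0364) lower in parous cells. Plin2 stood at 194, 388 and 230 normalized counts in virgin and 677, 744, 429 and 1021 in parous libraries, and Acaca at 7.57, 17.3 and 10.6 and then 57.1, 49.6, 40.7 and 68.0. The groups did not overlap for either gene. Fasn stood at 75.7, 82.7 and 44.9 in virgin and 158, 179, 87.5 and 167 in parous libraries, and Fads1, which desaturates long polyunsaturated chains, at 95.9, 73.1 and 63.4 and then 261, 125, 167 and 260. Agpat1 stood at 42.9, 65.4 and 44.9 and then 97.8, 105, 93.1 and 89.4, Mvd at 16.4, 19.2 and 25.1 and then 49.1, 88.4, 32.9 and 50.2, and Scd2 at 230, 71.1 and 132 and then 54.8, 65.8, 58.0 and 52.1. These 5 did not overlap either, and in all 13 fat, 2 sterol and 1 control gene did not, beside 29.7% of all genes. All virgin libraries were on the high and all parous ones on the low side of Clec2d. With the side term no member was called by limma, beside 0.0% of all genes, and 1 had an unadjusted p under 0.05 (370 of 10246 genes). In that fit the differences of Acaca, Fads1, Plin2 and Scd2 came to 0.52, 0.68, 1.06 and -0.19, and Agpat1 (-0.34), Fasn (-0.38) and Mvd (-0.78) turned. Without virgin replicate 821 the count was 2 of 47, and without parous replicate 830 it was 4. Sterol genes other than Mvd were not called, the nearest by p being Pmvk (0.48, adjusted p = 0.193). The median over all 16 sterol genes was 0.26, beside 0.35 for fat genes and 0.03 for all genes.

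Of the genes followed throughout, Scd1 gave 0.42, Xdh -0.07, Srebf1 -1.03, Hmgcs1 0.11, Sqle 0.30, Cyp51 0.32 and Insig1 0.20 between the K8iΔRank stages, with adjusted p from 0.304 to 0.896. Among other pathway genes Mgll (1.99), a lipase of monoglycerides, and the fatty acid transporters Slc27a4 (1.55) and Slc27a1 (1.59) were higher, 3 of 25 fat genes, and 2 of 20 sterol genes were higher and 2 lower, led by Insig2 (-1.16).

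**Figure D4:**
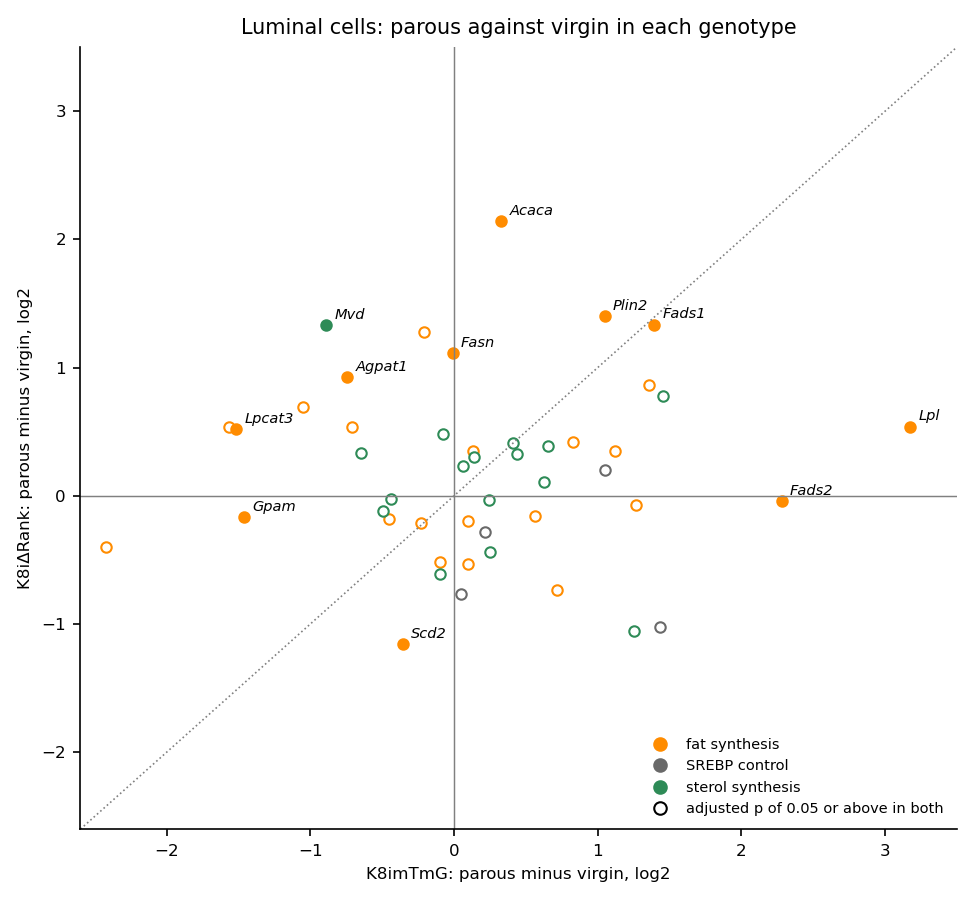
Log2 difference between parous and virgin luminal cells in K8imTmG (horizontal) against K8iΔRank mice (vertical) for 47 genes, coloured by list, with genes called in either comparison filled and named and a dotted line of equal difference. The 2 comparisons share no library; Lpcat3 lay at -1.52 and 0.52 and Lpl at 3.18 and 0.54.

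Whether the stage difference depended on genotype was tested directly as the genotype difference in parous minus that in virgin luminal cells. It was called for 7 of 47 genes, beside 12.9% of all genes, all of them fat genes. Lpcat3 (2.03, SE 0.24, adjusted p = 0.00313), Elovl1 (1.75, adjusted p = 0.0202), Agpat1 (1.67, adjusted p = 0.0199) and Plin3 (1.25, adjusted p = 0.0213) were positive, and Fads2 (-2.32, adjusted p = 0.0213), Elovl5 (-1.45, adjusted p = 0.0292) and Lpl (-2.64, adjusted p = 0.0429) negative. Elovl1, which lengthens long saturated chains, stood at 87.8, 78.1 and 174 normalized counts in virgin and 48.7, 48.8, 67.1, 35.2 and 59.7 in parous K8imTmG libraries, and at 47.9, 61.5 and 54.2 in virgin and 72.7, 141, 72.5 and 82.4 in parous K8iΔRank libraries. Neither pair of stages overlapped, and the parous libraries were the lower ones in K8imTmG and the higher ones in K8iΔRank mice. Lpcat3 was the only one with a called genotype difference within a stage. No sterol gene was called by limma among 16, with 2 at an unadjusted p under 0.05 (32.7% of all genes) and 1 each by DESeq2 (19.4%) and edgeR (12.6%). With the side term 0 members were called, beside 0.0% of all genes, and 6 had an unadjusted p under 0.05 (1179 of 10260 genes). In that fit Lpcat3 came to 1.68 (adjusted p = 0.119), Fads2 to -1.61, Elovl5 to -0.86, Elovl1 to 0.79 and Plin3 to 0.48, and Agpat1 turned to -0.10. The count was 1 without virgin K8imTmG 538 and 2 without virgin K8iΔRank 821.

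Basal cells of virgin mice differed in 5 of 46 members, beside 8.99% of all genes, all higher in K8iΔRank mice. Fasn stood at 151, 112, 121 and 136 normalized counts in K8iΔRank and 54.6, 37.2 and 48.9 in K8imTmG libraries (log2 difference 1.46, SE 0.24, adjusted p = 0.00914). Plin3 went from 47.4, 28.9 and 43.5 to 100, 86.8, 108 and 98.8 (1.31, adjusted p = 0.0172), and Acaca from 37.3, 33.1 and 27.2 to 76.2, 79.4, 61.6 and 63.4 (1.09, adjusted p = 0.0307). Agpat1 (2.32, adjusted p = 0.0228) and the sterol gene Mvd (2.70, adjusted p = 0.0489) rose from levels of 0 to 24.4 in K8imTmG libraries, where a read was worth up to 5.43 normalized counts. None of the 5 overlapped, nor did 10 fat, 3 sterol and 1 control gene in all, beside 28.2% of all genes. The K8imTmG libraries were all on the high and the K8iΔRank ones all on the low Clec2d side. With the side term no member was called by limma, beside 0.0% of all genes, and 2 had an unadjusted p under 0.05 (955 of 10613 genes). In that fit Fasn (-0.03) and Acaca (-0.54) changed sign. The count was 1 without K8iΔRank replicate 825, 2 without 820 and 3 without 822 or K8imTmG 568. Of other pathway genes Mid1ip1 (-1.02) and Mbtps2 (-1.31) were lower, 1 of 30 fat and 1 of 18 sterol genes.

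**Figure D5:**
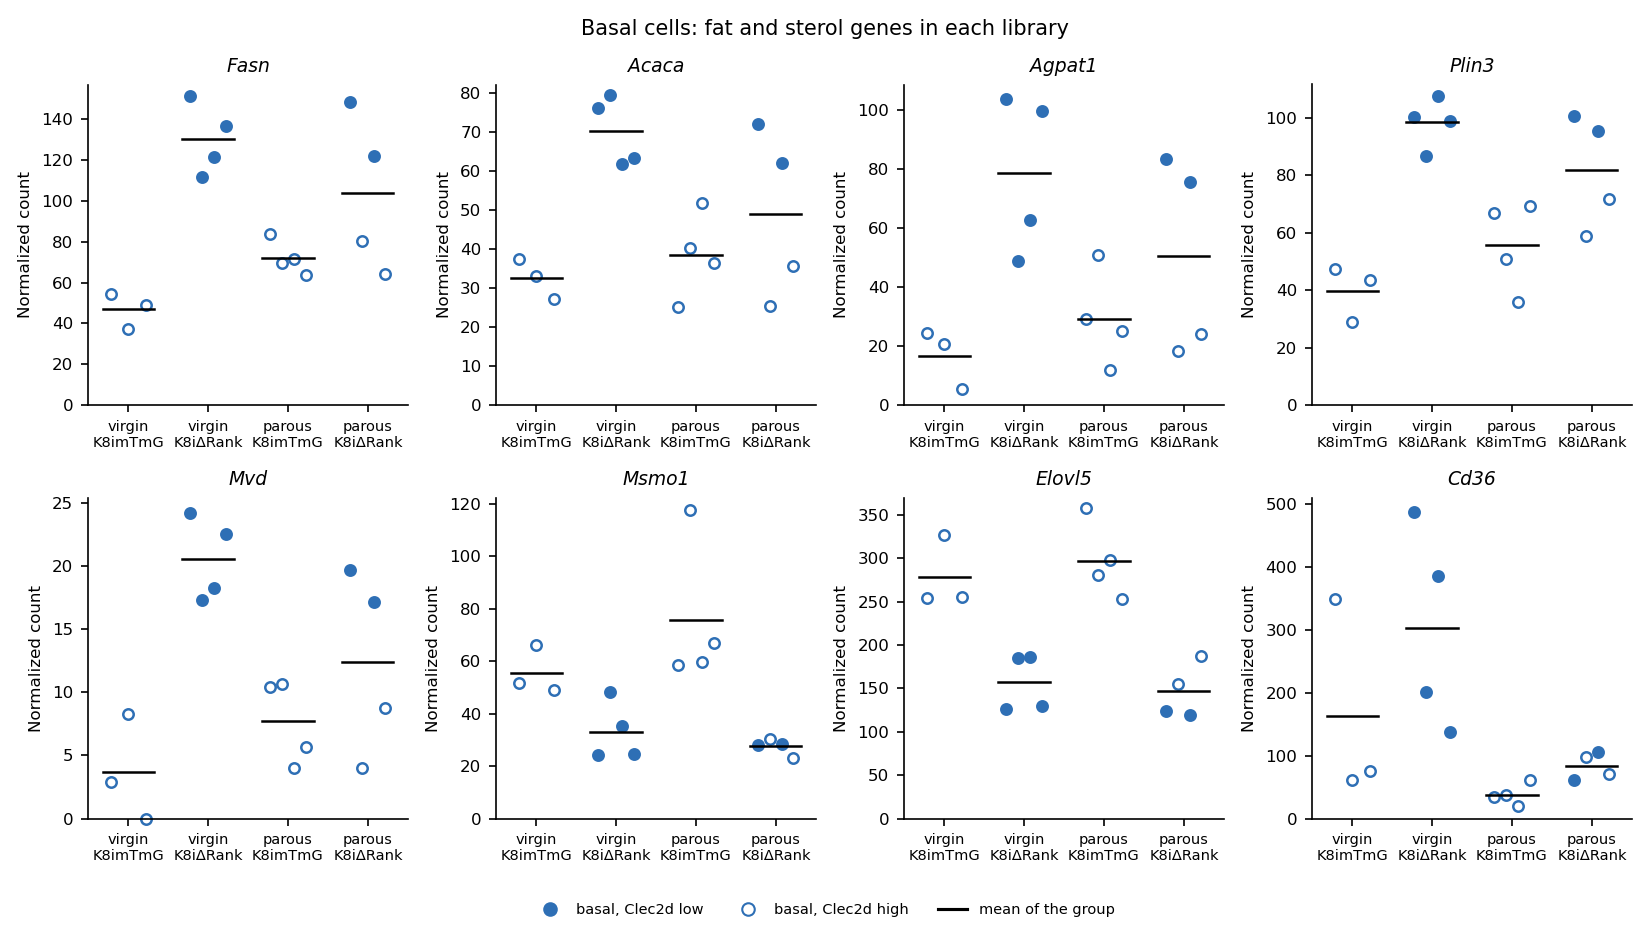
Normalized counts (linear axes from 0) of 7 fat and sterol genes named here and Cd36 in the 15 basal libraries, with open points for the high Clec2d side and bars for group means. Msmo1 lay at 23.3 to 30.3 in parous K8iΔRank cells and at 58.6 to 118 in parous K8imTmG cells, without overlap.

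Parous basal cells differed between genotypes in 2 of 46 members, beside 0.906% of all genes. Msmo1, a demethylation step after lanosterol, stood at 27.9, 30.3, 28.6 and 23.3 normalized counts in K8iΔRank and at 58.6, 118, 59.7 and 67.1 in K8imTmG libraries (log2 difference -1.37, SE 0.26, adjusted p = 0.0436). The 2 high-side K8iΔRank libraries (30.3 and 23.3) lay beside the 2 low-side ones. Elovl5 stood at 124, 155, 120 and 188 against 358, 281, 299 and 253 (-1.03, SE 0.20, adjusted p = 0.0436). Neither overlapped, as 2 fat, 1 sterol and 0 control genes did not, beside 12.0% of all genes. No member was called by limma with the side term or in high-side libraries alone, beside 0.0% of all genes in each. An unadjusted p under 0.05 was found for 5 members with the side term (1319 of 10591 genes) and 4 in high-side libraries alone (905 of 10416 genes). With no filter no member was called either and 10 had an unadjusted p under 0.05, the share of all genes not being given. Over all 11 alternatives that left out no single library the differences ran from -1.48 to -1.29 for Msmo1 and from -1.19 to -0.79 for Elovl5. Leaving out one library in turn gave 3 calls without K8imTmG 558, 5 without K8iΔRank 794 and 0 without any of the other 6. Of the 15 sterol genes tested 10 lay below and 5 above 0, with a median of -0.13 beside 0.06 for all genes.

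Between stages no member was called in basal cells. In K8imTmG mice limma called 0 of 46, beside 0.0% of all genes, with 7 at an unadjusted p under 0.05 (9.2% of all genes), while DESeq2 called 1 (0.38%) and edgeR 0 (0.0759%). Sqle had the lowest p, at 96.3, 77.6, 87.6 and 109 in parous and 60.3, 33.1 and 43.5 in virgin libraries (1.04, SE 0.27, adjusted p = 0.308), and Dgat2 followed, at 10.5, 5.35, 3.98 and 6.83 against 38.8, 28.9 and 16.3 (-1.91, SE 0.56, adjusted p = 0.38). Neither overlapped, as 6 fat, 1 sterol and 2 control genes did not, beside 9.35% of all genes. All 7 libraries were on the high Clec2d side. The sterol genes lay above 0 for 13 of 15, with a median of 0.39 beside 0.00 for all genes, and none of them passed the test. Virgin replicate 568, the shallowest library (340445 reads), weighed on this. Its mean log2 level of the sterol genes was 3.35, beside 4.73 and 4.55 in virgin replicates 531 and 538. The parous libraries ranged from 4.25 to 5.08, so that those 2 virgin libraries lay within the parous range.

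In basal cells of K8iΔRank mice limma called 0 of 45 between stages, beside 0.0% of all genes, with 3 at an unadjusted p under 0.05 (9.84%), while DESeq2 called 1 (0.846%) and edgeR 0 (0.0%). Cd36 had the lowest p, at 61.3, 97.2, 107 and 70.4 normalized counts in parous and 487, 201, 386 and 137 in virgin libraries (-1.70, SE 0.38, adjusted p = 0.284), followed by Srebf2 at 187, 308, 207 and 242 against 156, 174, 143 and 174 (0.52, adjusted p = 0.488). Both were without overlap, as were 2 fat and 1 control gene in all, beside 6.1% of all genes. The endothelial sums of basal libraries are given above, and the part of other cell types in this Cd36 difference was not tested.

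The Clec2d side itself was fitted beside the 8 groups. It was called for 7 of 47 members, beside 18.9% of all genes: Fasn (-1.50, adjusted p = 9.24e-05), Acaca (-1.63), Agpat1 (-1.26), Plin3 (-0.55), Mvd (-2.11) and Stard4 (-1.38) were lower and Scd2 (0.97) higher in high-side libraries. Of 27 fat genes 4 were thus lower and 1 higher, and of 16 sterol genes 2 were lower and 0 higher. In both groups that held libraries of either side, the parous luminal K8imTmG and the parous basal K8iΔRank group, every high-side value was below every low-side one for 10 members (Acaca, Agpat1, Cyp51, Dgat1, Elovl1, Fasn, Hsd17b7, Mvd, Plin3 and Stard4), beside 15.0% of all genes, and above for 5 (Acsl4, Elovl5, Scap, Srebf1 and Xdh), beside 15.3%. Fasn, for one, was 43.7 and 70.3 against 242, 301 and 154 in the luminal group and 80.5 and 64.1 against 148 and 122 in the basal group. Fasn, Acaca, Agpat1, Plin3, Mvd and Scd2 were thus called between sides and also between virgin and parous K8iΔRank luminal cells or between genotypes in virgin basal cells, with libraries shared between these fits.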

How the data were processed

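Luminal and basal mammary cells of single mice were profiled by QuantSeq 3′ mRNA sequencing, which reads transcript 3′ ends in the sense direction with molecular identifiers. The authors trimmed reads with BBDuk, aligned them with Bowtie2 to GRCm39, removed duplicates with UMI-tools and counted reads per gene (GENCODE vM26); FastQC 0.11.9 was used, per the submitters' processing notes. The deposited signal is a table of normalized counts, divided by the authors with DESeq2 size factors and limited to genes above 10 in at least 25% of samples. Whole reads were recovered from it (100% whole within 0.001).

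Each comparison was fitted in limma 3.58.1 (R 4.3.3) on log2(normalized count + 1), with only the 2 groups at issue in each fit (4 luminal groups for the interaction, all 8 for the lineages) and genes kept where 25% or more of those libraries exceeded 10. Adjusted p-values are Benjamini-Hochberg values over all genes tested, two-sided, with a threshold of 0.05. DESeq2 1.42.0 and edgeR 4.0.16 on recovered reads, other pseudocounts, filters and normalizations, array weights, joint fits, a Clec2d side term, one Clec2d side alone, a mouse block for the lineage comparison and leaving out each library were alternatives. The libraries were split at the widest gap of log2 Clec2d, a C-type lectin gene, and the difference between the sides itself was fitted after seeing the data. Scripts were tested on simulated data. Of 43 replicate pairs, none agreed within counting noise (chi-square per degree of freedom 2.67 to 39.8).

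Of the 13 mice that gave both lineages, the labels name the same animal for both libraries, and deviations from group means correlated at -0.24 to 0.34 (median 0.09). Named genes were those called in a comparison, or where none was, those of lowest p, and 9 genes followed in every luminal comparison; other genes were named after their values were seen. The members and lists were chosen with earlier results of these data known. One sequence, with the count that rests on it, and one gene are not reported here.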

Additional observations from a re-analysis of the deposited data

Results flagged for a closer look

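In groups of 4 or 5 libraries, 145 gene and group combinations of 29 genes were screened for one library far from the others, and 3 stood apart, where chance flags about 1 in 20. In parous luminal K8imTmG cells, Cd36 was 0 normalized counts in replicate 557 beside 3.53 to 6.72 in the other 4, and Gpam was 25.6 there beside 46.8 to 57.5. Scd2 was 126 in replicate 494 beside 47.6 to 58.8. Replicates 494 and 557 are the 2 libraries of this group on the high Clec2d side.

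The genotype difference in luminal cells differed between parous and virgin glands for 7 fat genes, by the interaction test in limma, 7 of 47 beside 12.9% of all genes. The interaction was 2.03 for Lpcat3, 1.75 for Elovl1, 1.67 for Agpat1 and 1.25 for Plin3, and -2.64 for Lpl, -2.32 for Fads2 and -1.45 for Elovl5, on the log2 scale. With the Clec2d side as a term 0 of the 47 were called, beside 0.0% of all genes, and Agpat1 turned to -0.10. The Clec2d side of the libraries and the genotype cannot be told apart in its virgin libraries.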

How the results depend on the processing

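In the lineage comparison 29 members were called, 22 to 33 under the other settings and 27 to 31 on leaving out a library; the replicate block by mouse, a pairing that comes from the labels, gave 30. Other comparisons shared no mice, and no paired analysis was possible for them because their groups hold different animals. With array quality weights the calls went from 0 to 13 between virgin and from 1 to 6 between parous luminal genotypes, from 4 to 27 between luminal K8imTmG stages, from 5 to 8 and from 2 to 9 between basal genotypes in virgin and parous mice, from 0 to 2 between basal K8iΔRank stages and from 7 to 15 for the interaction. DESeq2 gave 5, 4 and 11 in the first 3 of these (6.44%, 6.06% and 10.3% of all genes). It gave 1 in each basal stage comparison (0.38% in K8imTmG and 0.846% in K8iΔRank mice) and 11 for the interaction (19.4%). One fit per lineage gave 1 between virgin luminal genotypes, 7 and 1 between luminal stages of K8imTmG and K8iΔRank, and 8 between virgin basal genotypes. No share of all genes stands beside the counts from array weights, one fit per lineage or the range of 22 to 33. The same holds for every count on leaving out a library, above and below. These counts are therefore not results about the members. With the Clec2d side as a term the count was 9 between luminal K8imTmG stages, beside 9.4% of all genes. The count was 0 between luminal K8iΔRank stages, between basal genotypes of either stage and for the interaction, beside 0.0% of all genes in each. Low-side libraries alone gave 11 between luminal K8imTmG stages, beside 12.8% of all genes. High-side libraries alone gave 0 between parous basal genotypes, beside 0.0% of all genes, and no filter also gave 0.

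Leaving out a library gave 0 to 0 calls between virgin and 0 to 1 between parous luminal genotypes, 0 to 8 and 2 to 7 between luminal K8imTmG and K8iΔRank stages, 1 to 6 and 0 to 5 between virgin and parous basal genotypes, 0 to 0 between basal stages and 1 to 9 for the interaction. It turned the sign of genes near 0: between virgin luminal genotypes Scd1 ran from -0.19 to 0.52, Plin2 from -0.71 to 0.019, Cyp51 from -0.16 to 0.64 and Insig1 from -0.39 to 0.15. Between parous luminal genotypes Fasn ran from -0.23 to 0.46, Plin2 from -0.23 to 0.19, Xdh from -0.30 to 0.39, Hmgcs1 from -0.23 to 0.044, Sqle from -0.32 to 0.062 and Cyp51 from -0.12 to 0.33. Between K8imTmG stages Fasn ran from -0.32 to 0.37 and Sqle from -0.015 to 0.35, and between K8iΔRank stages Xdh from -0.49 to 0.27, Hmgcs1 from -0.12 to 0.32 and Insig1 from -0.14 to 0.65.

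The side term turned Fasn (0.53), Srebf1 (-0.43), Sqle (0.18) and Insig1 (0.35; array weights 0.56) between virgin luminal genotypes; Agpat1 (-0.34), Fasn (-0.38), Mvd (-0.78), Xdh (1.17), Srebf1 (0.046), Sqle (-0.15), Cyp51 (-0.49) and Insig1 (-0.20) between K8iΔRank stages; Fasn (-0.035) and Acaca (-0.54) between virgin basal genotypes; and Agpat1 (-0.10) for the interaction. Xdh between K8iΔRank stages was also 0.0022 by quantile normalization and 0.10 with array weights. Between parous luminal genotypes Fasn turned with array weights (-0.60), DESeq2 (-0.17), edgeR (-0.20), the side term (-0.45) and low-side libraries (-0.65), and Cyp51 with the same 5 (-0.14, -0.089, -0.11, -0.21 and -0.36). Plin2 turned with quantile normalization (0.031), and Xdh with it (0.018), array weights (0.73), the side term (0.48) and low-side libraries (0.71). Between K8imTmG stages Fasn turned with quantile normalization (0.12), array weights (0.47), DESeq2 (0.36), edgeR (0.39), the side term (0.59) and low-side libraries (0.79). The cause of these changes was not tested. In low genes such as Mvd, Idi1 and Dhcr7 single reads weigh on the values, as 1 read was worth up to 5.43 normalized counts in the shallowest library.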
